A study of Mus musculus with 30 samples.

Results

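Of the 48709 genes in the deposited tables, 108 had a span that touched the stretch of chromosome 8 reaching 1 Mb to either side of Ctcf (GRCm38). The 95 of them with at least 10 counts summed over all 30 libraries, Ctcf included, are described here. Position and that count minimum alone chose them, under a rule set with earlier results of these data known. The other 13 held fewer counts, 9 of them none. At the edges, Ciao2b lay 994602 bases from Ctcf and was kept, while Gm33023 at 1000075 bases was not. Gm8838 was kept with 11 counts and Gm27956 left out with 8. The 95 genes comprised 69 protein-coding genes, 10 pseudogenes and 16 other noncoding genes. The plus strand, on which Ctcf itself is transcribed, carried 59 and the minus strand 36. On the 5′ side of Ctcf lay 52, on the 3′ side 39, and the spans of Agrp, Gm5914 and Gm5915 overlapped that of Ctcf.

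RNA from brain, kidney, liver, quadriceps femoris muscle and spleen of adult C57BL/6 mice was sequenced, with 3 wild-type (WT, labelled control) and 3 Ctcf haploinsufficient (Ctcf+/-, called heterozygous below) libraries per tissue. The tissues came from 3 mice of each genotype, and the labels do not say which libraries share a mouse. How the Ctcf allele was made is not given in the sources used here. The question for these genes is whether those beside Ctcf changed in the heterozygous libraries, by distance, strand and tissue.

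CTCF binds DNA through its zinc fingers and, together with the cohesin ring, holds the base of chromatin loops and separates neighbouring regulatory domains. It was named for binding to repeats of the letters CCCTC at a promoter. Its gene sits in a gene-dense stretch that also holds a carboxylesterase cluster, the cadherin gene Cdh1 and many housekeeping genes.

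The promoters of Ctcf, Gm38250 and Zdhhc1 are shown because these genes are among the members called for a genotype effect in the fit over all 30 libraries. No result rests on the windows. Each is a RefSeq window of 300 bases on GRCm38.p6, written 5′ to 3′ on the gene's own strand, with CCCTC and its reverse complement GAGGG in capitals. The Ctcf window is chr8:105636288-105636587 on the plus strand, that of Gm38250 is chr8:105565930-105566229 on the plus strand, and that of Zdhhc1 is chr8:105497013-105497312 on the minus strand. Carmil2 is the remaining member of this group.
Ctcf: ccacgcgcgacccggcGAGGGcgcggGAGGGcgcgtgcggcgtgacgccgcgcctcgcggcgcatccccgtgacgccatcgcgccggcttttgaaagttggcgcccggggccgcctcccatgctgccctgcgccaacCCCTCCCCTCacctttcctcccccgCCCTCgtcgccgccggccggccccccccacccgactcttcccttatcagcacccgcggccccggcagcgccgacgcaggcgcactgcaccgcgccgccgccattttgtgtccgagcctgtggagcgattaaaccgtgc
Gm38250: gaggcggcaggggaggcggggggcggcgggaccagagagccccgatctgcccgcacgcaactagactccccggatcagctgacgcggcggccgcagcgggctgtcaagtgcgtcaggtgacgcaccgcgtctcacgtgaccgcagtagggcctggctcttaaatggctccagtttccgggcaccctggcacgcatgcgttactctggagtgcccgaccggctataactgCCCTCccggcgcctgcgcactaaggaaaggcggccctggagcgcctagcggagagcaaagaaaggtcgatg
Zdhhc1: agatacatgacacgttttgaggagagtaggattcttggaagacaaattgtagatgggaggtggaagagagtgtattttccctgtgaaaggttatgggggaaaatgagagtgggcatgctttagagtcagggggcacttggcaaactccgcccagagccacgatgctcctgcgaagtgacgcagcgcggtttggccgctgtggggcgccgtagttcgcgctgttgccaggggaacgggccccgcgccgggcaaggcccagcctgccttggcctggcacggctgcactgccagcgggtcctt
CCCTC on either strand matched 5 times in the Ctcf window, 1 time in that of Gm38250 and in no place in that of Zdhhc1. It occurred in 65.952% of all 32851 promoter windows of the same length, and in 40 of the 53 windows that 47 members had in the table. The GC content of the windows was 75.3% for Ctcf, 67.7% for Gm38250 and 59.3% for Zdhhc1.

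Library totals ran from 49.8 M to 131.6 M fragment counts, so that a count of 0 allows up to 0.0228 to 0.0602 CPM (counts scaled to a library of fixed size), for counting error only. Levels below are CPM scaled by the trimmed mean of M values (TMM), within each tissue and not between tissues. The markers of brain, kidney, liver, skeletal muscle and B cells were high in their own tissue. Some markers of other organs differed between the groups of spleen, of muscle and of kidney. The 5 liver markers summed to 31.1 to 39.8 CPM in WT spleen and to 0.0400 to 0.165 CPM in heterozygous spleen, while the 5 kidney markers summed to 0.168 to 0.423 and 9.94 to 20.8 CPM. In muscle the 3 adipocyte markers summed to 20.8 to 60.9 CPM in WT and 109.7 to 289.8 CPM in heterozygous libraries, and the 5 kidney markers to 8.58 to 64.1 and 0.0986 to 5.08 CPM, with 3 lower without overlap. The pancreas markers reached 1994 CPM in a heterozygous spleen library, against at most 256.6 CPM in WT spleen. In kidney the 5 liver markers summed to 69.0 to 88.1 CPM in WT and 121.6 to 404.6 CPM in heterozygous libraries. Ttr alone of them was higher without overlap, and 3 of the 5 brain markers were lower without overlap there.

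Ctcf itself was lower in heterozygous than in WT libraries of every tissue, at 61.4% to 67.2% of the WT mean. In brain it stood at 66.5, 68.1 and 71.7 CPM in the WT libraries and at 40.9, 44.4 and 42.8 CPM in the heterozygous ones. In kidney the values were 63.9, 58.0 and 58.1 CPM against 38.1, 39.6 and 32.9 CPM. The groups were far apart in both tissues. In liver they were 27.4, 25.8 and 26.7 CPM against 19.6, 17.7 and 13.4 CPM, and in muscle 29.3, 32.0 and 34.3 CPM against 23.5, 19.3 and 21.4 CPM. Spleen had the highest level and the widest spread, with 176.3, 228.9 and 195.3 CPM against 133.6, 104.9 and 153.5 CPM. No heterozygous library reached a WT library of its tissue, except in spleen when libraries were scaled by total counts alone.

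The log2 fold change of Ctcf, heterozygous over WT, was -0.69 ± 0.06 (SE) in brain and -0.70 ± 0.10 in kidney. Liver gave -0.66 ± 0.15, muscle -0.57 ± 0.11 and spleen -0.62 ± 0.19. With edgeR's quasi-likelihood test and Benjamini-Hochberg adjustment over all genes tested in a tissue, it passed 0.05 in brain (adjusted p = 0.0259). Kidney reached 0.107, liver 0.543, muscle 0.2497 and spleen 0.914. With DESeq2, Ctcf passed in brain (adjusted p = 1.1e-14), kidney (9.8e-07) and muscle (0.00724), but not in liver (0.0692) or spleen (0.413). When edgeR took the effect in each tissue from a joint model of the 30 libraries, Ctcf passed in spleen alone (adjusted p = 0.0219). The brain call was lost there. In brain and kidney, same-numbered WT and heterozygous libraries were taken as paired from these data alone, as no label pairs them. The main fits left this pairing out. With the number as a block the kidney value passed (edgeR adjusted p = 0.0440). Leaving out any of the 6 brain libraries ended the brain call (edgeR adjusted p 0.100 to 0.292), and leaving out heterozygous replicate 3 in kidney made one (0.0364).

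Fitted over all 30 libraries with tissue as a term, Ctcf fell by 0.63 on the log2 scale (95% interval -0.75 to -0.51, edgeR adjusted p = 4.0e-07). In that fit 0.194% of 24262 genes were called, and 4 of the 83 members tested: Ctcf lower, and Carmil2, Gm38250 and Zdhhc1 higher. A difference of the genotype effect between tissues was not detected for Ctcf (edgeR adjusted p = 1). Libraries from the same mouse count there as separate. When replicate numbers were taken as mice and averaged over tissues, an alternative chosen after seeing the data and tested with limma, Ctcf (adjusted p = 0.0201) and Carmil2 (4.5e-08) passed, while Gm38250 (0.195) and Zdhhc1 (0.0961) did not.

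**Figure D1:**
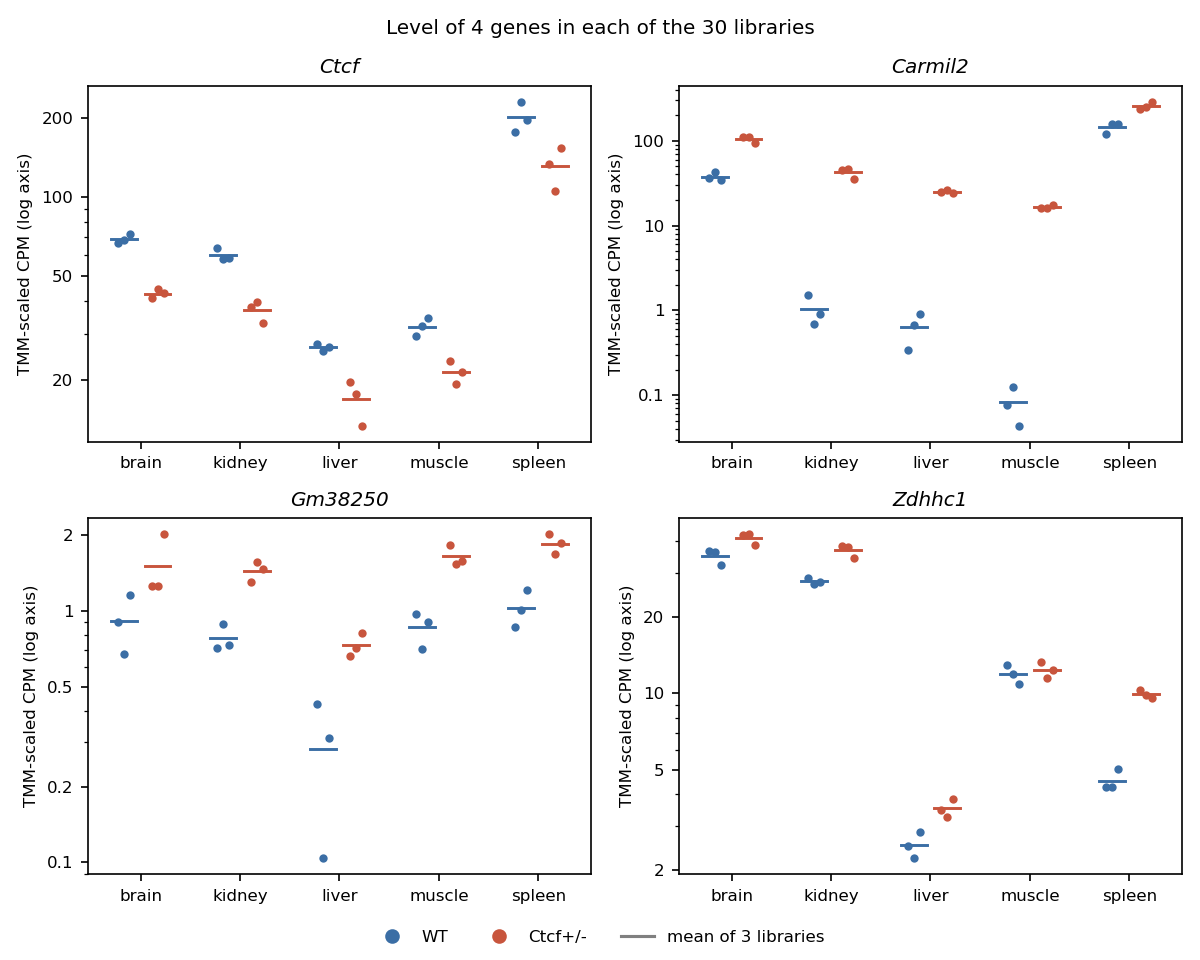
TMM-scaled CPM (log axis) of Ctcf, Carmil2, Gm38250 and Zdhhc1 in every library, by tissue, with WT in blue, Ctcf+/- in red and a line at each mean of 3. Ctcf is lower and Carmil2 and Gm38250 are higher in the heterozygous libraries of all 5 tissues without overlap, and Zdhhc1 is higher without overlap in all but muscle.

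Carmil2 rose in brain, kidney, liver and muscle, from near absence in WT muscle. It encodes a regulator of actin filament ends that works through capping protein and is known for T cell co-stimulation. It lies 3351 bases beyond the 3′ end of Ctcf on the same strand, at chr8:105686274-105698187. In kidney it read 1.53, 0.687 and 0.906 CPM in WT and 45.5, 46.4 and 35.3 CPM in heterozygous libraries. In liver it read 0.340, 0.678 and 0.901 CPM against 24.8, 26.1 and 24.5 CPM. Muscle held almost none in WT, with 0.0768, 0.126 and 0.0438 CPM (at most 13 counts), and 16.2, 16.1 and 17.5 CPM in heterozygous libraries. In those 3 tissues every heterozygous library stood far above every WT library.

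Brain and spleen already expressed Carmil2 in WT. Brain held 35.9, 42.6 and 34.9 CPM in WT and 110.4, 109.4 and 93.9 CPM in heterozygous libraries. Spleen held 121.4, 159.6 and 157.9 CPM against 239.6, 252.9 and 284.8 CPM. The groups did not overlap in either tissue.

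The fitted rise of Carmil2 was 2.76-fold in brain (95% interval 2.36 to 3.24). Kidney rose 40.6-fold (26.2 to 62.8), liver 39.5-fold (24.4 to 63.8) and muscle 196.0-fold (130.5 to 294.4). edgeR's adjusted p was 0.00773, 5.6e-04, 0.00113 and 2.8e-05 in that order. In spleen the value was 1.77-fold (1.34 to 2.34) and did not pass (edgeR adjusted p = 0.248, DESeq2 0.0234). Of all genes with an adjusted p, DESeq2 called 0.793% in spleen, 1.11% in kidney, 1.02% in muscle, 0.364% in liver and 0.137% in brain. Ctcf and Carmil2 were the 2 members called in brain, where 0.0157% of all tested genes were called, and Carmil2 was the member called in kidney (0.0211%), liver (0.0193%) and muscle (0.0249%). Brain lost its call when WT replicate 1 (edgeR adjusted p = 0.204) or the heterozygous replicates 1 (0.0603) or 2 (0.0850) were left out, and in kidney, liver and muscle it held without each library. The effect differed between tissues (edgeR adjusted p = 2.1e-11 for the difference).

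Carmil2 is expressed in lymphocytes, so the leukocyte markers are given beside it. The 6 T cell markers summed to 5.47 to 9.58 CPM in WT and 6.73 to 7.54 CPM in heterozygous kidney, and to 3.19 to 6.21 and 3.51 to 3.86 CPM in liver. In muscle they summed to 0.727 to 0.797 CPM in WT and 0.858 to 2.62 CPM in heterozygous libraries, with 2 of 6 higher without overlap. Ptprc and Coro1a together gave 2.18 to 4.53 CPM in WT muscle and 4.12 to 5.14 CPM in heterozygous muscle. None of these markers was called in a tissue, and the part of the T cell and adipocyte markers in the muscle value was not tested. Of the exonic bases of Carmil2, 22.0% are shared with Acd on the opposite strand, and without strand the fragments there cannot be assigned to either gene, which makes both counts uncertain.

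Between tissues, the heterozygous level of Carmil2 was far more even than the WT level. Per kilobase of countable exon (bases shared with no other gene), the highest WT tissue, spleen, was 1780-fold above the lowest, muscle, and in heterozygous libraries the same ratio was 15.6-fold. The rise itself, heterozygous minus the WT mean, spanned 6.83-fold from muscle to spleen, and the WT level of Ctcf spanned 7.51-fold. Scaling was within each tissue, so these spans between tissues also carry differences in library composition, whose part was not tested. Per kilobase, the rise of Carmil2 was 15.6 ± 2.17 CPM (SD over 3 heterozygous libraries) in brain, where WT Ctcf stood at 15.3 CPM. It was 9.67 ± 1.44 against 13.4 CPM in kidney and 5.72 ± 0.20 against 5.93 CPM in liver. In muscle it was 3.86 ± 0.18 against 7.10 CPM, and in spleen 26.4 ± 5.42 against 44.6 CPM. As a share of WT Ctcf, the rise came to 101.9% in brain, 96.4% in liver, 72.4% in kidney, 59.1% in spleen and 54.4% in muscle. Intron retention and read-through between the genes were not analysed here.

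**Figure D2:**
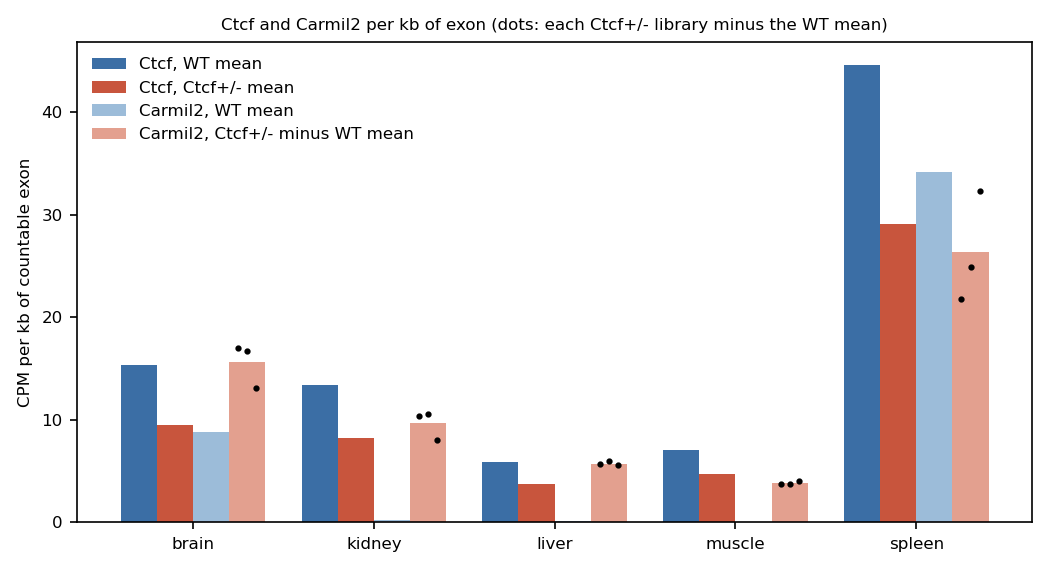
CPM per kb of countable exon in each tissue for Ctcf (WT and Ctcf+/- means), Carmil2 in WT, and the rise of Carmil2 in heterozygous libraries over the WT mean, with a dot for each heterozygous library. The rise is smallest in muscle (3.86) and largest in spleen (26.4), the tissues at the low and high ends being liver and spleen for WT Ctcf.

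Gm38250 was higher in the heterozygous libraries of every tissue by a similar ratio. It is an antisense noncoding gene on the plus strand at chr8:105566324-105578109, 58458 bases on the 5′ side of Ctcf and overlapping the long minus-strand span of Agrp, with no exonic base shared. It is weakly expressed, with at most 201 counts in a library. In brain it read 0.906, 0.674 and 1.15 CPM in WT and 1.26, 1.25 and 2.01 CPM in heterozygous libraries. In kidney it read 0.713, 0.890 and 0.733 CPM against 1.30, 1.56 and 1.47 CPM. In liver, where it was lowest, it read 0.428, 0.104 and 0.311 CPM against 0.661, 0.714 and 0.819 CPM. The brain groups came closest to each other.

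In muscle Gm38250 read 0.969, 0.707 and 0.899 CPM in WT and 1.82, 1.53 and 1.58 CPM in heterozygous libraries. In spleen it read 0.860, 1.01 and 1.21 CPM against 2.01, 1.68 and 1.86 CPM. No heterozygous library overlapped WT in any tissue. The log2 fold change was 0.74 ± 0.27 in brain and 0.89 ± 0.21 in kidney. It was larger in liver (1.36 ± 0.46, with the widest error), 0.94 ± 0.21 in muscle and 0.85 ± 0.25 in spleen, and none passed alone with edgeR (adjusted p 0.338 to 1), while DESeq2 called it in kidney (0.0489) and muscle (0.0232). Over all tissues it rose by 0.95 ± 0.13 on the log2 scale (edgeR adjusted p = 1.6e-04), or 1.94-fold, and a difference between tissues was not detected (edgeR adjusted p = 1).

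Gm38250 starts back to back with Atp6v0d1, which encodes a subunit of the membrane sector of the vacuolar proton pump and runs the other way. Their RefSeq promoter windows share 215 bases, chr8:105566015-105566229, which is the 3′ part of the Gm38250 window printed above. Atp6v0d1 read 247.4, 278.6 and 288.6 CPM in WT brain and 268.5, 267.8 and 271.7 CPM in heterozygous brain. Its log2 fold change ran from -0.17 in liver to 0.05 in kidney, with overlapping groups in all 5 tissues. Over all tissues the change of Atp6v0d1 was -0.05 (95% interval -0.22 to 0.11), against 0.69 to 1.21 for Gm38250.

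Zdhhc1, a palmitoyltransferase of the endoplasmic reticulum, was higher in brain, kidney, liver and spleen without overlap. It lies on the minus strand, 139665 bases on the 5′ side of Ctcf, at chr8:105472423-105496902, and shares no exonic base with another gene. In spleen it read 4.29, 4.27 and 5.04 CPM in WT and 10.3, 9.85 and 9.62 CPM in heterozygous libraries. In kidney it read 28.6, 27.0 and 27.5 CPM against 38.4, 37.9 and 34.2 CPM. Muscle was the exception, with 12.9, 11.96 and 10.9 CPM against 13.3, 11.6 and 12.4 CPM, which overlap.

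In brain Zdhhc1 read 36.5, 36.3 and 32.1 CPM in WT and 42.1, 42.5 and 38.5 CPM in heterozygous libraries. In liver it read 2.51, 2.24 and 2.83 CPM against 3.46, 3.26 and 3.84 CPM. Its log2 fold change was highest in spleen (1.13 ± 0.17), followed by liver (0.48 ± 0.19), kidney (0.41 ± 0.08), brain (0.23 ± 0.08) and muscle (0.06 ± 0.11). None passed alone with edgeR, spleen coming closest (adjusted p = 0.0757). DESeq2 called it in spleen (6.9e-06) and kidney (0.0158). Over all tissues it rose by 0.47 ± 0.08 (edgeR adjusted p = 0.00425), and the effect differed between tissues (edgeR adjusted p = 0.00707), in 0.758% of genes called for such a difference. The shared effect was lost without kidney (edgeR adjusted p = 0.0629), liver (0.0642), the WT libraries numbered 3 (0.0920) or the heterozygous libraries numbered 1 (0.0754). The tissue difference was lost without spleen (edgeR adjusted p = 0.585) and without the libraries of any number and genotype except WT number 3 (0.0538 to 0.153). The 5 kidney markers summed to 9.94 to 20.8 CPM in heterozygous spleen and to 18730 to 25090 CPM in heterozygous kidney, where Zdhhc1 itself read 34.2 to 38.4 CPM, and their part in the spleen value was not tested.

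The nearest genes to Ctcf on either side, Carmil2 aside, were not called in any tissue. Acd, the shelterin subunit TPP1 of telomeres, overlaps the 3′ end of Carmil2 on the other strand. It read 18.6, 22.0 and 23.3 CPM in WT and 21, 16.6 and 21.5 CPM in heterozygous kidney, where Carmil2 rose 40.6-fold. Its log2 fold changes ran from -0.17 in muscle to -0.01 in brain. Pard6a, a cell polarity adaptor next in line, ranged from -0.20 in spleen to 0.02 in brain and kidney, and Enkd1, a microtubule-binding protein, from -0.06 in brain to 0.25 in muscle. On the 5′ side, Ripor1, 14348 bases away, ranged from -0.16 in muscle to 0.12 in brain. All 4 had overlapping groups in every tissue, apart from Acd in muscle, where 4.30, 4.504 and 4.34 CPM stood against 3.57, 4.02 and 4.08 CPM (edgeR adjusted p = 0.916).

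The other near genes were weakly expressed. Agrp, the agouti-related neuropeptide gene whose long span starts inside Ctcf, was higher without overlap in kidney (0.304, 0.282 and 0.346 against 0.401, 0.515 and 0.415 CPM) and in liver, uncalled in both. The pseudogene Gm5915 inside Ctcf was lower without overlap in spleen, at 0.379, 0.457 and 0.272 CPM against 0.130, 0.220 and 0.0940 CPM, also uncalled. In liver and muscle, where it was too low to be tested, it was higher without overlap, with at most 2 counts in a WT library and at most 5 in a heterozygous one. These 2 genes were chosen after their values were seen. Gm38384, 1696 bases from Ctcf, gave -0.51 ± 0.33 in brain and -0.47 ± 0.77 in spleen, Gm45855 gave -0.46 ± 0.34 in spleen, and 4933405L10Rik 0.31 ± 0.30 in brain and -0.42 ± 0.47 in kidney, all with overlapping groups.

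**Figure D3:**
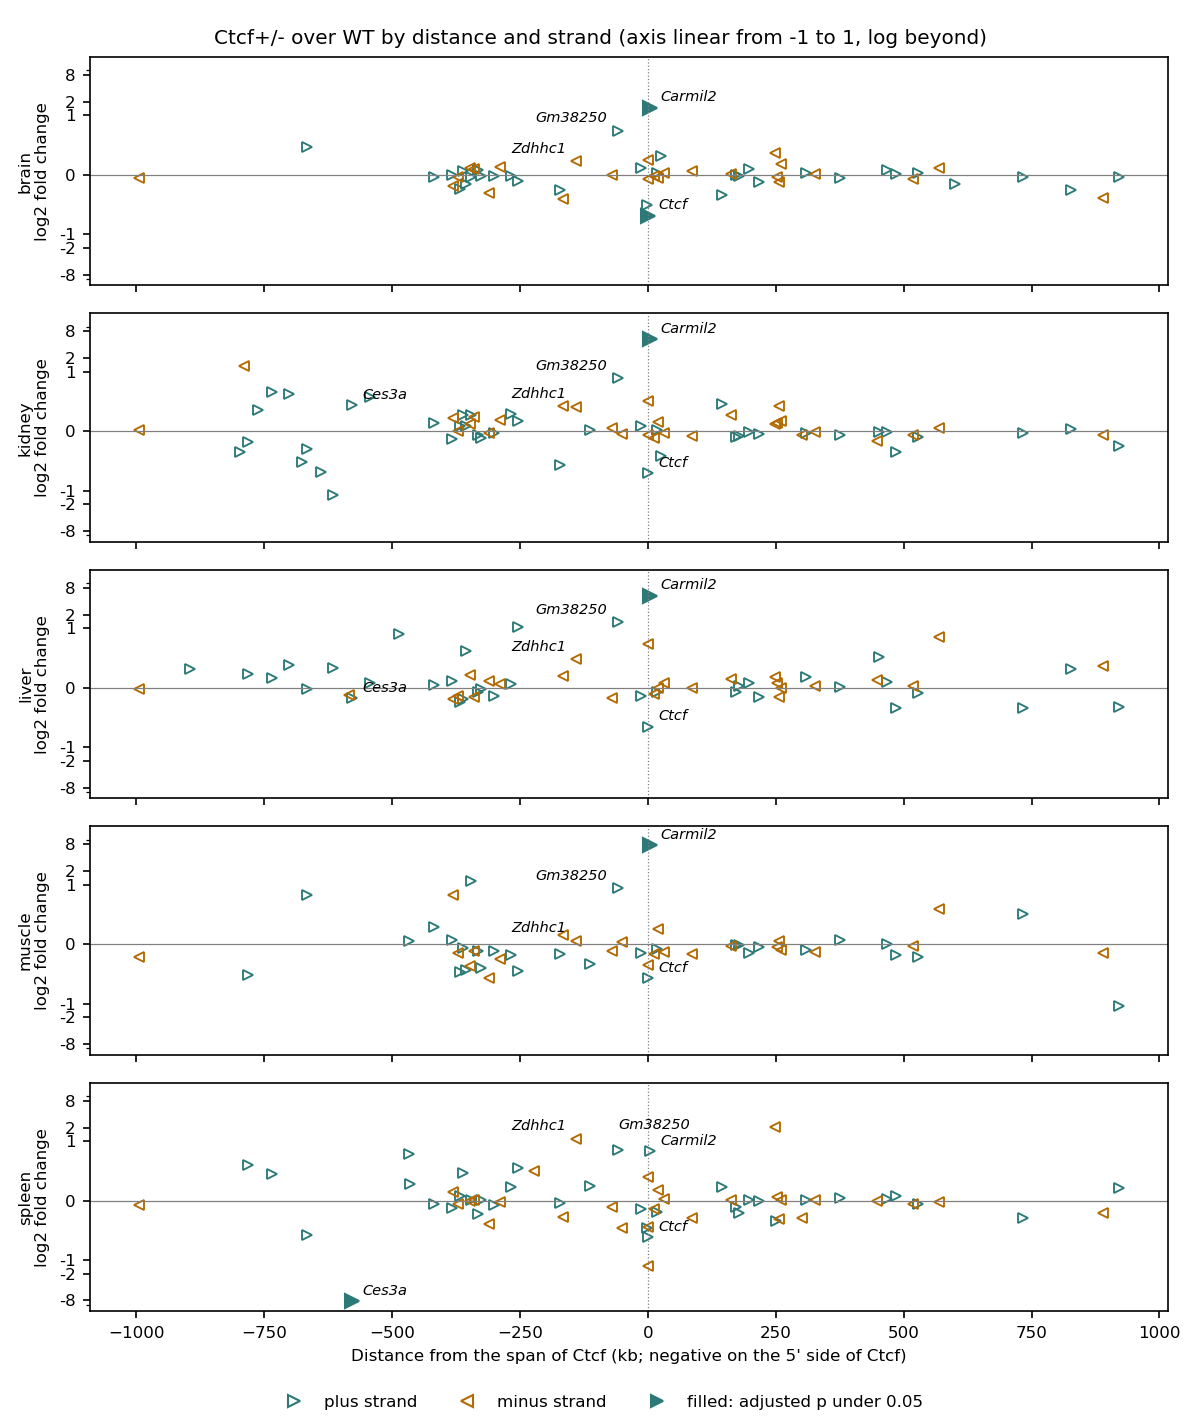
Log2 fold change of each tested member against its distance from the span of Ctcf in kb, by tissue, with strand as the direction of the triangle and called members filled; the vertical axis is linear from -1 to 1 and logarithmic beyond. Carmil2 stands beside Ctcf far above its neighbours in kidney, liver and muscle, while Gm38250 lies between 0.74 and 1.36 in all tissues and most other members lie close to 0.

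By distance, most pairs of a member and a tissue that were higher without overlap lay within 200 kb of Ctcf. Without Ctcf, 313 pairs of a member and a tissue were tested, and 214 had an absolute log2 fold change under 0.25. Within 200 kb (26 members), the heterozygous libraries were higher without overlap for 3 of 21 tested members (brain), 5 of 22 (kidney), 4 of 16 (liver), 2 of 19 (muscle) and 3 of 23 (spleen). Of all genes tested, 3.73%, 6.15%, 4.68%, 5.91% and 4.35% were. Carmil2, Gm38250 and Zdhhc1 made up all of these in brain and spleen and the former pair all in muscle, and Agrp in kidney and liver and Tppp3 in kidney were the others. From 200 kb to 1 Mb (68 members), 1 of 37, 3 of 50, 2 of 46, 2 of 36 and none of 43 were higher without overlap. Among the 2 in liver was 1810019D21Rik, 452477 bases on the 3′ side of Ctcf, named for its large change there but uncalled. Over all tissues its log2 fold change was 0.27 ± 0.22 (edgeR adjusted p = 0.9999).

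On the lower side, Ctcf left out, 1, 1, 0, 2 and 1 tested members within 200 kb and 2, 2, 3, 6 and 1 beyond it were below WT without overlap, in the same order of tissues. The shares over all genes were 4.1%, 5.28%, 4.31%, 6.28% and 2.29%. An unadjusted p under 0.05 was reached by 5 of 59 brain members (2.96% of all genes), 8 of 73 in kidney (6.44%) and 5 of 63 in liver (4.56%), Ctcf included. Muscle had 9 of 56 (6.45%) and spleen 6 of 67 (3.52%). The part of the adipocyte and kidney markers in the muscle counts was not tested, nor was that of the liver markers in the kidney counts.

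Within 200 kb, brain had a median log2 fold change of 0.01, kidney 0.02, liver 0.06, muscle -0.09 and spleen -0.11. Beyond 200 kb the medians in that order were -0.03, -0.01, 0.05, -0.11 and 0.00. Medians over all genes tested lay between -0.01 and 0.00. By side, the medians ran from -0.12 (muscle) to 0.09 (kidney) on the 5′ side and from -0.06 (muscle) to 0.03 (liver) on the 3′ side. The farthest stretch, 500 kb to 1 Mb, had the largest share of tested members past 0.25 in absolute log2 fold change in kidney (12 of 20), liver (8 of 17) and muscle (5 of 9), against 24.4%, 27.8% and 28.2% of all genes, on few genes. It holds 10 of the 11 carboxylesterases.

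By strand, the medians of the other plus-strand members were -0.02 (brain), -0.02 (kidney), 0.05 (liver), -0.09 (muscle) and 0.01 (spleen). Those of the minus-strand members were -0.01, 0.05, 0.04, -0.12 and -0.03. Members other than Ctcf that edgeR called within a tissue were Carmil2 (4 tissues) and Ces3a (spleen), both on the plus strand, which holds 59 of the 95 members. Zdhhc1, called over all tissues and by DESeq2 in spleen and kidney, is on the minus strand. Within 200 kb, the plus-strand members higher without overlap were Carmil2 and Gm38250 in each tissue (2 of 11, 11, 7, 9 and 11 tested). On the minus strand they were 1 of 10 (brain), 3 of 11 (kidney), 2 of 9 (liver), none of 10 (muscle) and 1 of 12 (spleen), with Zdhhc1 among them in all but muscle.

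**Figure D4:**
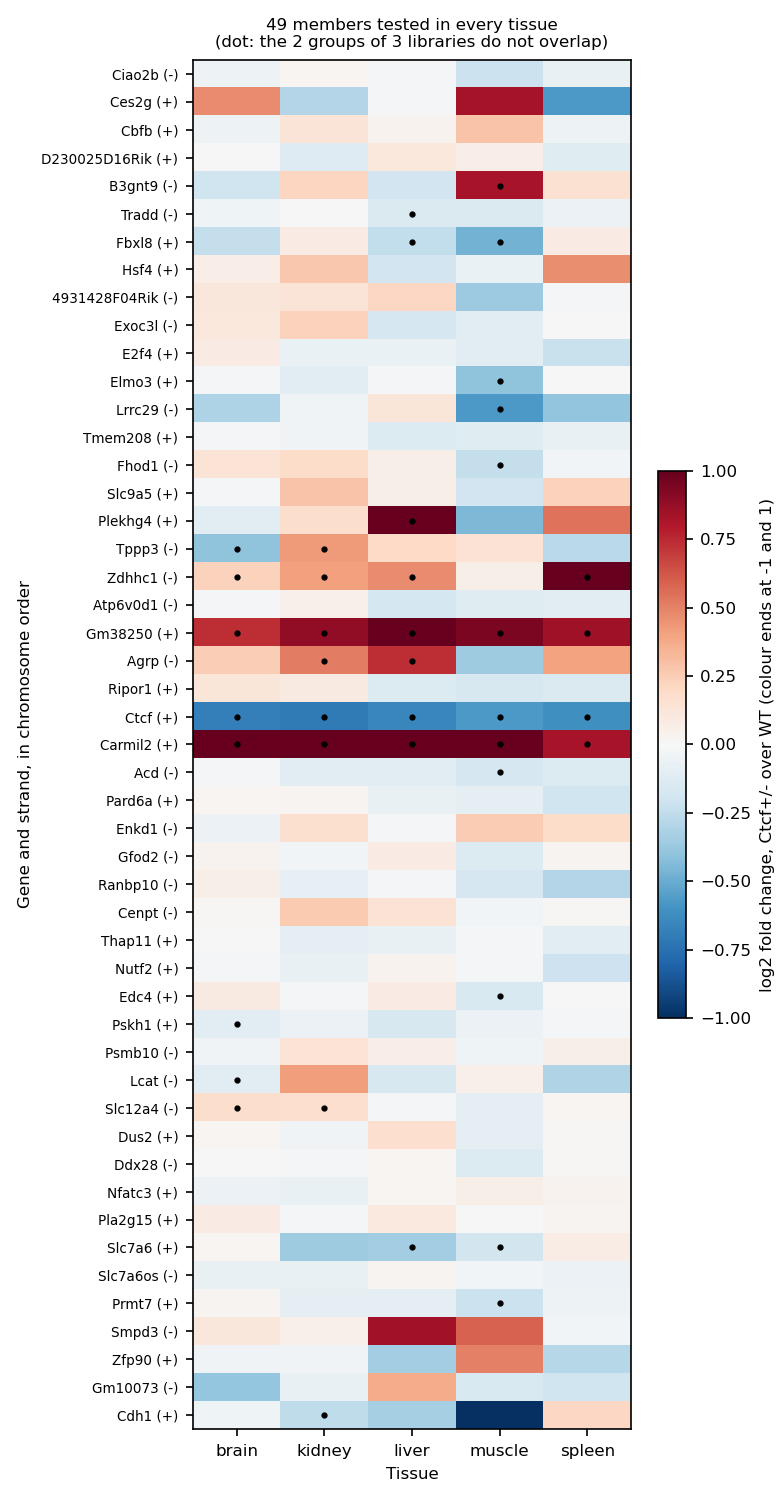
Log2 fold change (colour, ending at -1 and 1) of the 49 members tested in all 5 tissues, in chromosome order, with a dot where the groups of 3 do not overlap. Ctcf is blue and Carmil2 and Gm38250 red across all tissues, Zdhhc1 red in 4, and most lines around them pale.

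Few genes of the genome had groups apart in the same direction in every tissue. Of 12996 genes tested in all 5 tissues, 5 (0.0385%) were higher and 2 (0.0154%) lower without overlap in every tissue. Carmil2 and Gm38250 were 2 of the 5, and Ctcf was 1 of the 2. Ccnb2-ps, also among the 5, lies on chromosome 8 as well but outside the stretch described here. In at least 4 tissues 17 genes (0.131%) were higher and 5 (0.0385%) lower, among them 3 of the 49 members (Carmil2, Gm38250 and Zdhhc1) and 1 (Ctcf). Tppp3, a tubulin-binding protein 165041 bases from Ctcf, differed in sign between tissues: in brain 57.2, 60.4 and 49.8 CPM stood against 44.6, 40.2 and 42.2 CPM, and in kidney 2.93, 3.35 and 3.33 CPM against 3.93, 4.59 and 4.41 CPM. Neither was called (edgeR adjusted p 0.860 and 0.621), and a difference between tissues was not detected for it (adjusted p = 1).

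Among 11 transcription and chromatin factors, all tested in every tissue, Ctcf in brain was the one called. Of the other 10, at most 3 (in spleen) and in brain none passed 0.25 in absolute log2 fold change. Prmt7, an arginine methyltransferase, gave -0.22 ± 0.08 in muscle and Cbfb, the partner of RUNX factors, 0.29 ± 0.14, both uncalled (edgeR adjusted p 0.665 and 0.828). Cbfb groups overlapped in each tissue. E2f4, a cell cycle repressor, ranged from -0.22 in spleen to 0.08 in brain. The list medians were 0.00, -0.07, -0.08, -0.07 and -0.11 in brain, kidney, liver, muscle and spleen.

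The 6 RNA and translation genes were the flattest list, with no member past 0.25 in any tissue and medians from -0.11 to 0.03. Edc4, a scaffold of mRNA decapping, gave -0.16 ± 0.09 in muscle and was lower without overlap there. Of the 9 cytoskeleton and polarity genes, Carmil2 was called in 4 tissues and no other in any. Fhod1, an actin-nucleating formin, was lower without overlap in muscle at 39.1, 40.8 and 42.8 CPM against 34.1, 33.0 and 36.6 CPM (edgeR adjusted p = 0.651). The 6 genes of ubiquitin, proteasome and cell death held no call. In muscle Nol3, an apoptosis repressor abundant in striated muscle, gave -0.43 ± 0.14 with overlapping groups, and the list median there was -0.32 over 6 genes. All 3 adipocyte markers were higher without overlap in the same libraries, and their part in it was not tested.

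Neither the transport and steroid genes (5 members) nor the lipid and peptide enzymes (5 members) had a called member. Slc12a4, a potassium chloride cotransporter, was slightly higher without overlap in brain (0.18 ± 0.08) and kidney (0.17 ± 0.08). Hsd11b2, which inactivates glucocorticoids in the distal nephron, read 158.4, 163.9 and 136.0 CPM against 156.0, 158.9 and 148.3 CPM in kidney. Lcat, which esterifies cholesterol in plasma lipoproteins, read 563.8, 665.8 and 374.2 CPM against 457.4, 483.7 and 493.9 CPM in liver. Both overlapped. Of 4 cadherin and epithelial genes none was called. Cdh1 (E-cadherin) read 223.8, 244.7 and 230.8 CPM in WT kidney and 192.4, 187.2 and 208.0 CPM in heterozygous kidney, a log2 fold change of -0.25 ± 0.09 (edgeR adjusted p = 0.629). The epithelial markers Epcam, Krt8 and Krt18 summed to 372.9 to 414.4 CPM in WT kidney and 273.9 to 361.0 CPM in heterozygous kidney. Krt8 alone was lower without overlap (148.7 to 159.9 against 77.35 to 106.7 CPM). Epcam (184.9 to 207.3 against 158.7 to 214.7 CPM) and Krt18 overlapped. The part of these markers in the Cdh1 value was not tested.

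The 11 carboxylesterases, enzymes that hydrolyse esters and drugs mainly in liver and gut, had 9 members tested in kidney, 8 in liver, 3 in spleen, 2 in muscle and 1 in brain. None of the 8 in liver was called, and their median there was 0.27. Ces3a read 1257, 1044 and 689.2 CPM in WT liver and 850.4, 951.2 and 848.1 CPM in heterozygous liver. In kidney Ces2e was higher without overlap, at 12.2, 14.0 and 15.5 CPM against 23.6, 20.2 and 20.6 CPM (0.63 ± 0.12, edgeR adjusted p = 0.212, called by DESeq2). The liver markers also summed higher in heterozygous kidney, and their part in the Ces2e value was not tested. Ces2h was lower there, at 0.902, 0.484 and 0.601 CPM against 0.275, 0.264 and 0.304 CPM (edgeR adjusted p = 0.42). These paralogs lie side by side and are alike in sequence, and fragments aligning to several places were not counted, so their counts are uncertain.

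In spleen Ces3a was the one member called, where 0.242% of genes were. It read 0.452, 0.397 and 0.382 CPM in WT (31 to 38 counts) and had no count in the 3 heterozygous libraries, at least 11.9-fold lower against a floor of 3 counts per library (edgeR adjusted p = 0.0489). Leaving out any of the 6 libraries ended the call (edgeR adjusted p 0.0709 to 0.348). Ces3b, too low to be tested, had 8 to 16 counts in each WT library and none in the heterozygous ones. All 5 liver markers were also lower without overlap in spleen, 4 of them called, and Alb read 23.9 to 30.5 CPM in WT and 0.0200 to 0.105 CPM in heterozygous libraries. Their part in the Ces3a value was not tested. Ctrl, a pancreatic protease gene 249080 bases from Ctcf chosen after its values were seen, reached 123.2 CPM in heterozygous spleen replicate 2 and 2.52 to 18.4 CPM in the 3 WT libraries, with overlapping groups. That library also held the most pancreas marker RNA.

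The members were not all expressed in the same tissues. Among those that reached 1 CPM per kilobase of countable exon in WT libraries of some tissue, spleen held the highest WT level for 27, brain for 16, kidney and liver for 9 each and muscle for 3. On that scale WT brain was led by Atp6v0d1 (151.4 ± 11.99 CPM) and Tppp3 (30.2 ± 2.94), kidney by Hsd11b2 (83.0 ± 8.05) and Atp6v0d1 (60.8 ± 7.78), and liver by Lcat (398.3 ± 110.3) and Ces3a (379.5 ± 109.2). Muscle was led by Nol3 (44.6 ± 7.26) and Cbfb (32.0 ± 4.56) and spleen by Psmb10, an immunoproteasome subunit (77.99 ± 24.4), and E2f4 (74.2 ± 27.2), each ± SD over 3 libraries. The leading pairs in liver and in spleen did not differ beyond their spread. Among the 95 members, Ctcf ranked between 5 (spleen) and 23 (liver) by WT level, and Carmil2 ranked 8 in spleen, 18 in brain, 56 in liver, 61 in kidney and 67 in muscle. Scaling was within each tissue, so the counts of members highest in each tissue also carry differences in library composition. Their part was not tested.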

How the data were processed

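RNA-seq was compared between 3 WT and 3 heterozygous libraries in each of 5 tissues, grouped by the labels. The authors deposited raw fragment counts per gene and exonic lengths; per the file headers they were made with featureCounts 1.5.0-p3 over exons of the Ensembl 86 GRCm38 annotation, on IRFinder alignments, without strand. FastQC, STAR and DESeq2 are named in the submitters' processing notes. Multi-mapping fragments and fragments over several genes were not counted, so overlapping genes are undercounted.

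Here edgeR 4.0.16 (R 4.3.3) tested all genes of a tissue by quasi-likelihood after TMM scaling and filterByExpr, and Benjamini-Hochberg adjusted p under 0.05 is called. A fit over all 30 libraries gave the effect shared by tissues and its difference between them. DESeq2 1.42.0, limma 3.58.1, other scalings, filters, distance limits and left-out libraries were alternatives. Scripts were tested on simulated data. Gene symbols were matched for 48349 of 48709 identifiers.

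Depth ran from 49.8 M to 131.6 M counts per library. Per the series design each genotype had 3 mice, and p-values measure the spread between these libraries. Replicate pairs differed beyond counting noise (chi-square per degree of freedom at least 15.4). Same-numbered WT and heterozygous libraries deviated together in brain (r 0.207, 0.383 and 0.537) and kidney (0.209, 0.190 and 0.212), by the data alone, and were taken as paired there. In brain, WT 2 with heterozygous 1 gave 0.216, above the 0.207 of the pair numbered 1.

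The members and lists were chosen with earlier results of these data known. Named are Ctcf, the 5 nearest members on each side, called members, those without overlap in at least 4 tissues, the 3 largest changes and 2 highest levels per tissue, and up to 4 per functional list. No member belongs to the CMTM list.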

Additional observations from a re-analysis of the deposited data

Results flagged for a closer look

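The genotype effect on Carmil2 differed between tissues (edgeR adjusted p for the difference 2.149e-11), from 1.77-fold in spleen to 196.0-fold in muscle, and the difference held in all 15 alternatives that tested it (adjusted p 1.467e-13 to 1.343e-06). The effect on Zdhhc1 also differed (edgeR adjusted p 0.007072), from 0.06 in muscle to 1.13 in spleen on the log2 scale, and held in 10 of 16 alternatives. Groups of 3 libraries were not tested for single libraries that stand apart.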

How the results depend on the processing

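Without members whose exons overlap another gene, 0 members were called in each tissue. This setting removes Ctcf, Carmil2 and Ces3a, which shares 1 base with Gm45724. DESeq2 called 5 members in kidney (1.11% of all genes it tested), 3 in muscle (1.02%) and 4 in spleen (0.793%). With no filter beyond 1 count 2 were called in kidney. With 10 counts required in every library, which leaves out Carmil2 in muscle and Ces3a in spleen, 0 were called in muscle and spleen. In the fit over all libraries that filter leaves out Carmil2 and Gm38250, with 2 called for a shared effect and 1 for a tissue difference. The fit of all 30 libraries called 1 in brain and 3 in spleen. No member within 250 kb or 500 kb was called in spleen (0 in both), because Ces3a, at 578154 bases from Ctcf, lies beyond both limits. A tissue difference was called for 4 members without kidney and 1 without spleen. Averaging each numbered mouse left 2 with a shared effect.

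With the replicate number as a block, 2 members were called in kidney (Ctcf and Carmil2) and 0 in spleen, and the minus-strand median in liver was 0.0727. In liver and muscle the same-numbered pairs also had positive correlations (0.0512 to 0.277 and 0.0829 to 0.271), and in spleen they ran from -0.472 to 0.475. Pairing was not assumed in these tissues, whose lowest correlations were below those of brain and kidney, a choice made on these data. The block changed no other count of calls.

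Scaling by total counts moved the liver medians to 0.116 (plus strand), 0.125 (minus), 0.124 (within 200 kb) and 0.117 (beyond). Without overlapping members the medians were 0.0749 on the plus strand in spleen, -0.0401 on the minus strand in brain and 0.0770 on the minus strand in liver, where 10 counts in every library gave 0.0310.

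Leaving out 1 library at a time gave 0 to 1 called members in brain, 1 to 2 in kidney and 0 to 0 in spleen. Leaving out the libraries of 1 number and genotype in all tissues gave 1 to 2 for the tissue difference. With 1 library left out, plus-strand medians ran from -0.0107 to 0.0383 (brain), -0.107 to 0.0368 (kidney), 0.00701 to 0.0715 (liver), -0.127 to -0.0720 (muscle) and -0.0626 to 0.0221 (spleen). Minus-strand medians ran from -0.0201 to 0.0206 (brain), -0.0284 to 0.153 (kidney), 0.00667 to 0.0642 (liver) and -0.194 to -0.0380 (muscle). Within 200 kb they ran from -0.0251 to 0.112 (kidney) and -0.135 to 0.0177 (muscle), and beyond it from -0.0164 to 0.0321 (brain) and -0.104 to 0.0324 (spleen). The causes were not tested. None of the results recomputed changed a called direction.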
